A study of Mus musculus with 11 samples.

Results

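The genes described here were 6 that couple glucose to the membrane potential of the beta cell: *Slc2a2*, *Slc2a1*, *G6pc2*, *Kcnj11*, *Abcc8* and *Trpm5*. They were chosen by symbol from the 55401 genes counted, each matched 1 gene, and all 6 were among the 17424 genes that passed a filter on low counts and were tested. Islet cells of 4 mice had been sorted by FACS and gave 11 RNA-seq libraries: 8 of beta cells, 4 with the label NNAT-positive and 4 with the label NNAT-negative, and 3 of non-beta cells, which mouse 4 lacked. The groups shared strain (C57BL6/J), sex (male), chow feeding, an age of 10 weeks by the labels, and the genotype of RIP-Cre, STOP-tdTomato and Nnat-EGFP. Cre under the rat insulin promoter switched on tdTomato, so a beta cell was any cell in which that promoter had been active, and EGFP reported a transgene carrying the *Nnat* regulatory region, not the *Nnat* transcript itself. *Nnat* encodes neuronatin, a small endoplasmic reticulum membrane protein that acts in early insulin processing. In these bulk samples, fewer cells of a type and less RNA per cell cannot be told apart.

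Beta cells take up glucose through facilitative transporters of the SLC2A (GLUT) family and then phosphorylate it for metabolism. The ATP made from it closes ATP-sensitive potassium (KATP) channels, the membrane depolarises, calcium enters and insulin granules fuse. *Slc2a2* encodes GLUT2, the low-affinity transporter of rodent beta cells and hepatocytes, and *Slc2a1* encodes GLUT1, the transporter of most other tissues. *G6pc2* encodes the islet glucose 6-phosphatase catalytic subunit, which removes the phosphate again. *Kcnj11* encodes Kir6.2, the pore of the KATP channel, *Abcc8* encodes SUR1, its regulatory subunit and the target of sulfonylureas, and *Trpm5* encodes a calcium-activated cation channel of taste cells and beta cells.

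The labels of the beta cell fractions went against the *Nnat* transcript, so the libraries are called positive-labelled and negative-labelled below, and every direction between them is by label. In CPM (read counts scaled to a common library size with TMM factors), *Nnat* was at 50.5, 46.4, 46.0 and 101 in mice 1 to 4 in the positive-labelled libraries. It was at 74.8, 80.8, 66.5 and 153 in the negative-labelled ones, and at 12.9, 29.9 and 17.4 in the non-beta libraries of mice 1 to 3. In 4 of 4 mice the positive-labelled library had less *Nnat* (log2 fold change −0.62, SE 0.17, adjusted *p* = 0.444 by edgeR's quasi-likelihood test). Total counts per library were between 30420352 and 43238376, and 3 counts, the floor for detection, were 0.0649 to 0.102 CPM, a limit for counting error alone. The tdTomato gate matched its label: the summed CPM of 7 beta cell markers was between 177085 and 422760 in the beta libraries and between 10351 and 25548 in the non-beta ones. The non-beta libraries were a mixture, with summed levels of 123279 to 171502 CPM for 6 alpha cell markers, 12935 to 49923 for 5 acinar markers and 1967 to 2269 for 5 endothelial markers. Of the markers of other islet endocrine cells, the alpha, delta and gamma cell lists were each higher in the positive-labelled library of all 4 mice: summed alpha markers were at 2818 to 4077 CPM against 1587 to 2486, 4 delta markers at 1403 to 2490 against 543 to 1046 and 2 gamma markers at 299.7 to 421 against 89.0 to 159, with none of these markers at 0 in a beta library. The endothelial list was also higher there in 4 of 4 mice, but at low levels (0.262 to 7.81 CPM against 0.109 to 1.02). The mesenchymal and acinar lists were higher in 3 of 4 mice, and the ductal and macrophage lists in 1 of 4.

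On GRCm38 (mm10), the build of the counts, *Slc2a2* (ENSMUSG00000027690.13) spans chr3:28697903-28731359 on the plus strand, *Slc2a1* (ENSMUSG00000028645.11) chr4:119108711-119137983 on the plus strand and *G6pc2* (ENSMUSG00000005232.11) chr2:69211073-69227841 on the plus strand. The other 3 genes lie on the minus strand of chromosome 7. The KATP subunits are neighbours there: *Kcnj11* (ENSMUSG00000096146.2) spans chr7:46093953-46100764 and *Abcc8* (ENSMUSG00000040136.10) chr7:46104523-46180033, with 3758 bases between them. *Trpm5* (ENSMUSG00000009246.14) spans chr7:143069153-143094642, and *Kcnq1*, another channel gene, lies 11719 bases away. All 6 are protein coding. The strand setting of the counting was not given in the sources used here, and 220 exonic bases of *Trpm5* are shared with *Tssc4* and 105 of *Slc2a1* with *Gm12868*, both on the opposite strand. The other 4 genes share 0 exonic bases with another gene.

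The 250 bases before the RefSeq start (GRCm38.p6) are shown for the 3 genes that were much higher in beta cells and had an entry, and for *Slc2a1*, which was not, so that the upstream sequences can be read against each other. All are 5′ to 3′ on the strand of the gene, and capitals mark matches on either strand to GGGCGG (a GC box), to CANNTG (an E-box) or to TAAT (a homeodomain core). The motif TATAAA was searched in the same way and had 0 matches in the 4 windows, and no matches overlap one another there.
Slc2a2 upstream, chr3:28697653-28697902, plus strand: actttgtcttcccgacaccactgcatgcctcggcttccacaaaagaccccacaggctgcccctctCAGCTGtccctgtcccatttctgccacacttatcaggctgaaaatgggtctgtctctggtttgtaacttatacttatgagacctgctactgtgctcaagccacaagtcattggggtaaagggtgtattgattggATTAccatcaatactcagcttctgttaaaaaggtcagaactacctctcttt
G6pc2 upstream, chr2:69210823-69211072, plus strand: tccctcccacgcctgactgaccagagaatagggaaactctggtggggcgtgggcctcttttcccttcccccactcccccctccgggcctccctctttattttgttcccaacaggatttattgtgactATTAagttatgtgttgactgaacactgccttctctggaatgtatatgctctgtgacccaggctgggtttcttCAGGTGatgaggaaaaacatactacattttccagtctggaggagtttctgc
Trpm5 upstream, chr7:143094643-143094892, minus strand: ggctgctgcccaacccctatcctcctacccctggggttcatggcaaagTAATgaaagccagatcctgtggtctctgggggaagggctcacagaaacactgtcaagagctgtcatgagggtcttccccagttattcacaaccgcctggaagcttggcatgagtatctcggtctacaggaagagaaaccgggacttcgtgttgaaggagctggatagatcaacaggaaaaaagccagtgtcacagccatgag
Slc2a1 upstream, chr4:119108495-119108744, plus strand: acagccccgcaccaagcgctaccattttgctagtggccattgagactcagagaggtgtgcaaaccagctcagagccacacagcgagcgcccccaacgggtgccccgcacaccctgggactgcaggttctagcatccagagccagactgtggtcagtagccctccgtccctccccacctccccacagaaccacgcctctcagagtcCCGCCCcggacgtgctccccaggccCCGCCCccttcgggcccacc

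The *Slc2a1* window was the one rich in G and C (66.4%) and held 2 GC boxes and 13 CpG, where the median over 32851 windows of the same length was 52.4% and 6 CpG. It held 0 E-boxes and 0 TAAT cores. *Slc2a2* (47.2% G and C, 2 CpG), *G6pc2* (50.0%, 3 CpG) and *Trpm5* (52.8%, 4 CpG) each held 1 TAAT core and 0 GC boxes. *Slc2a2* and *G6pc2* each held 1 E-box and *Trpm5* held 0. TATAAA was found in 12.4%, the GC box in 32.7%, the E-box in 66.2% and the TAAT core in 54.9% of all windows, so single matches to the last pair of motifs are common. These matches are a description of letters, not of binding. The RefSeq start of *Slc2a1* lies downstream of the gencode start, so its window reaches into the gencode gene. The second RefSeq start of *G6pc2* was not used here.

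*Slc2a2*, *G6pc2* and *Trpm5* were about 20-fold higher in beta cells than in non-beta cells, *Abcc8* was less than 2-fold higher, and *Kcnj11* and *Slc2a1* did not pass the test. A call needed an adjusted *p* under 0.01 together with a difference of over 2-fold. By that rule 3 of the 6 genes were called higher in the positive-labelled fraction than in non-beta cells, where 6.13% of all tested genes were called higher. The same 3 were called higher in the negative-labelled fraction than in non-beta cells, where 6.18% of all tested genes were. The median log2 difference of the 6 genes was 2.54 and 2.46, beside −0.06 and −0.13 over all tested genes. Both comparisons use the same 3 non-beta libraries.

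GLUT2 transcript was abundant in both beta cell fractions. *Slc2a2* was at 1791, 1691, 1916 and 1405 CPM in mice 1 to 4 in the positive-labelled libraries. It was at 1741, 1357, 2084 and 1473 CPM in the negative-labelled ones, and at 61.8, 66.6 and 151 CPM in the non-beta libraries. The beta libraries were all far above the non-beta ones, and mouse 3 was highest in all 3 fractions. The difference was 20.5-fold for the positive-labelled fraction (log2 4.36, SE 0.23, adjusted *p* = 3.23e-07 by edgeR's quasi-likelihood test) and 19.8-fold for the negative-labelled one (log2 4.31, SE 0.23, adjusted *p* = 2.94e-07).

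GLUT1 transcript was far below GLUT2 transcript in both beta cell fractions. Per kilobase of exon its level exceeded 57.9%, 59.6% and 56.9% of 17409 tested genes in positive-labelled, negative-labelled and non-beta libraries. *Slc2a1* was at 14.7, 12.1, 17.2 and 10.8 CPM in the positive-labelled libraries, at 16.1, 14.1, 15.3 and 11.8 in the negative-labelled ones and at 20.8, 12.8 and 11.4 in non-beta cells. The 3 ranges overlapped, and the non-beta library of mouse 1 was the highest of the 11. Against non-beta cells, the log2 difference was −0.02 (95% interval −0.45 to 0.42, adjusted *p* = 0.955 by edgeR's quasi-likelihood test) for the positive-labelled fraction and 0.05 (−0.39 to 0.49, adjusted *p* = 0.853) for the negative-labelled one. The sign of the second changed with RLE size factors, with DESeq2, without the mouse block and without mouse 2 or mouse 3, and that of the first without mouse 1.

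*G6pc2* followed *Slc2a2* from library to library. It was at 4305, 3747, 4445 and 2935 CPM in mice 1 to 4 in the positive-labelled libraries and at 4468, 3098, 4801 and 3212 CPM in the negative-labelled ones. The non-beta libraries had 160, 157 and 352 CPM. Mouse 3 was again the highest in each fraction and no beta library overlapped with a non-beta one. The difference was 19.6-fold in both comparisons (log2 4.29, SE 0.22, adjusted *p* = 2.52e-07 for the positive-labelled fraction and 2.24e-07 for the negative-labelled one by edgeR's quasi-likelihood test).

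*Trpm5*, the taste cell cation channel gene, had a difference of similar size. It was at 151, 150, 183 and 134 CPM in the positive-labelled libraries, at 162, 196, 184 and 168 CPM in the negative-labelled ones and at 6.49, 4.13 and 14.8 CPM in non-beta cells. Here too the beta and non-beta libraries did not overlap, and mouse 3 had the highest non-beta value. The difference was 20.2-fold (log2 4.34, SE 0.30, adjusted *p* = 1.71e-06 by edgeR's quasi-likelihood test) for the positive-labelled fraction and 23.6-fold (log2 4.56, SE 0.30, adjusted *p* = 1.20e-06) for the negative-labelled one.

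The KATP channel subunits were present in both kinds of cell. *Abcc8* was at 1161, 1178, 1157 and 1363 CPM in the positive-labelled libraries, at 1119, 970, 1112 and 1104 CPM in the negative-labelled ones and at 570, 823 and 669 CPM in non-beta cells. Non-beta cells were lowest, with no overlap with the beta libraries. *Abcc8* was 1.73-fold higher than in non-beta cells in the positive-labelled fraction (log2 0.79, SE 0.13, adjusted *p* = 0.000744 by edgeR's quasi-likelihood test) and 1.54-fold higher in the negative-labelled one (log2 0.62, SE 0.13, adjusted *p* = 0.00302). At an adjusted *p* below 0.01 and any fold, 34.8% and 36.8% of all tested genes passed in these comparisons. The first difference had an adjusted *p* of 0.0102 without mouse 3. The second had 0.0311 without mouse 1, 0.0347 without mouse 3 and 0.0249 with the libraries of those 2 fractions alone, by the same edgeR test. Over all alternatives, DESeq2 included, the adjusted *p* ran from 1.39e-07 to 0.0102 for the first and from 2.43e-05 to 0.0347 for the second.

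*Kcnj11*, the pore subunit, was at 184, 189, 175 and 136 CPM in the positive-labelled libraries, at 174, 175, 166 and 122 CPM in the negative-labelled ones and at 119, 172 and 148 CPM in non-beta cells. The ranges overlapped, with mouse 4 lowest in both beta cell fractions. Its log2 difference from non-beta cells was 0.34 (95% interval 0.10 to 0.58, adjusted *p* = 0.0232 by edgeR's quasi-likelihood test) and 0.23 (−0.00090 to 0.47, adjusted *p* = 0.0921) for the positive-labelled and negative-labelled fractions, and neither passed.

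**Figure D1:**
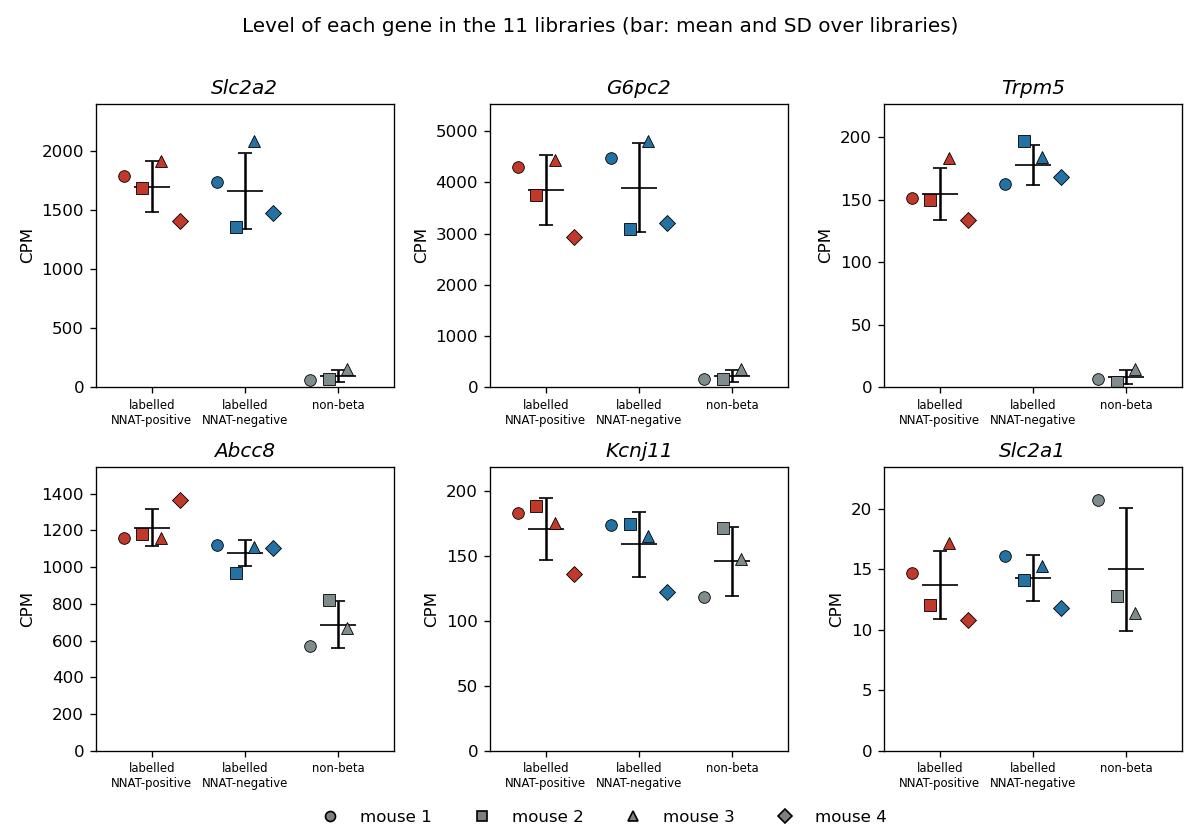
Level of each of the 6 genes (vertical axis from 0, CPM) in the 3 sorted fractions, with 1 point per library, the marker shape giving the mouse, and the bar the mean with its SD. *Slc2a2*, *G6pc2* and *Trpm5* separate beta from non-beta libraries widely, *Abcc8* separates them narrowly (570 to 823 against 970 to 1363 CPM), and *Kcnj11* and *Slc2a1* overlap.

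The non-beta level can be set against the beta cell libraries of the same mouse and against markers of beta cells. *Slc2a2* in non-beta cells was 3.50%, 4.37% and 7.55% of the mean of the beta libraries in mice 1, 2 and 3, and *G6pc2* was 3.64%, 4.59% and 7.61%. *Trpm5* was 4.14%, 2.39% and 8.03%. The insulin gene *Ins2* was 3.46%, 3.05% and 8.05% there, so *Slc2a2* and *G6pc2* lay within the range of insulin, *Trpm5* lay just below it in mouse 2, and mouse 3 was highest for each. *Mafa*, a transcription factor of mature beta cells, was 2.92%, 2.79% and 6.33%, and *Pdx1*, which delta cells also express, was 8.41%, 12.9% and 12.7%. Whether beta cells in the non-beta gate carried these transcripts was not tested. *Abcc8* (50.0%, 76.6% and 58.9%), *Kcnj11* (66.3%, 94.4% and 86.8%) and *Slc2a1* (135%, 97.7% and 70.3%) stood far above that range.

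**Figure D2:**
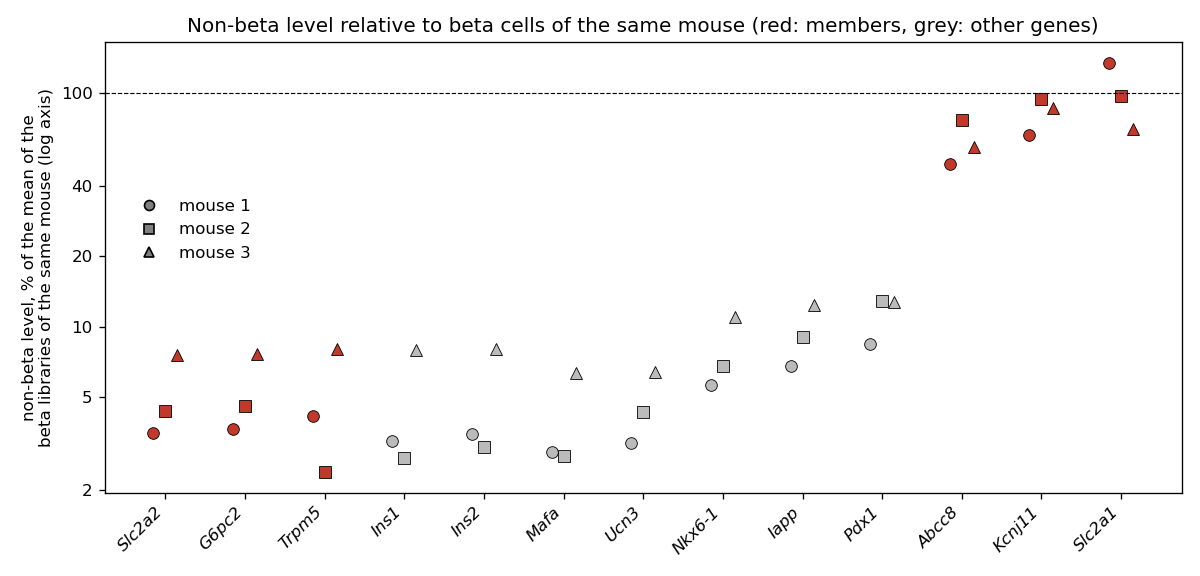
Non-beta level of the 6 genes (red) and of beta cell markers (grey), as a percentage of the mean of the 2 beta libraries of the same mouse (log axis; dashed line at 100%), for mice 1 to 3. *Slc2a2*, *G6pc2* and *Trpm5* lie between 2.39% and 8.03%, near *Ins2* at 3.05% to 8.05%, and *Abcc8*, *Kcnj11* and *Slc2a1* between 50.0% and 135%.

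Between the beta cell fractions, none of the 6 genes passed the test. By edgeR's quasi-likelihood test 0 of the 6 were called, against 0.0459% of all tested genes, and in the fit of all 11 libraries 0 had an unadjusted *p* below 0.05, where 4.82% of all tested genes had one in the higher and 0.746% in the lower direction. With DESeq2 on the same libraries 0 of the 6 had one either, where 6.03% of all tested genes had one in the higher and 2.57% in the lower direction. With edgeR on the 8 beta libraries alone, 1 of the 6 (*Trpm5*) had one, where 4.07% of the 14489 genes tested had one in the higher and 2.95% in the lower direction. The log2 difference, positive-labelled minus negative-labelled, was 0.05 for *Slc2a2* (95% interval −0.34 to 0.44), −0.07 for *Slc2a1* (−0.46 to 0.32) and −0.00046 for *G6pc2* (−0.37 to 0.37). The intervals reach differences of about 1.3-fold to 1.4-fold in either direction for these 3 genes, so the fit of all 11 libraries leaves room for differences up to that size. The size needed to pass the test was not worked out. The intervals were narrower in the fit of the 8 beta libraries alone, at −0.15 to 0.15 for *Slc2a2*, −0.40 to 0.17 for *Slc2a1* and −0.20 to 0.11 for *G6pc2*. The median of the 6 genes was 0.03, beside 0.05 over all tested genes. Adjusted *p* values for the 6 genes were between 0.911 and 1 by edgeR's quasi-likelihood test.

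The KATP subunits and *Trpm5* each kept 1 sign in all 4 mice. How many of all tested genes did so was not counted, so no result about these genes is read from it. The median log2 difference over all tested genes was 0.05 in this fit and 0.02 with RLE size factors. Small positive differences thus depend in part on the normalisation. Of the beta cell markers, *Iapp* and *Mafa* were also lower in 4 of 4 mice, and the others were mixed in sign. *Abcc8* was higher on the positive-labelled side in 4 of 4 mice, by 0.05, 0.28, 0.06 and 0.30 on the log2 scale in mice 1 to 4 (fitted value 0.17, 95% interval −0.09 to 0.43). *Kcnj11* was higher in 4 of 4 mice, by 0.07, 0.11, 0.08 and 0.15 (0.10, −0.10 to 0.31). *Trpm5* was lower in 4 of 4 mice, with differences of −0.10, −0.39, −0.0058 and −0.33 (−0.22, −0.72 to 0.27). The unadjusted *p* values were 0.182, 0.291 and 0.343 in that order and the adjusted ones 0.911, 0.931 and 0.946 by edgeR's quasi-likelihood test. In the fit of the 8 beta libraries alone *Trpm5* was at −0.25 (95% interval −0.42 to −0.076), with an unadjusted *p* of 0.00921 and an adjusted one of 0.576 by edgeR. In the same fit *Abcc8* was at 0.13 (−0.0046 to 0.27) and *Kcnj11* at 0.07 (−0.06 to 0.19), with unadjusted *p* values of 0.0567 and 0.264 and adjusted ones of 0.701 and 0.802 by edgeR. The lowest positive-labelled *Abcc8* level (1157 CPM) lay just above the highest negative-labelled one (1119 CPM), and the levels of *Trpm5* and *Kcnj11* overlapped. The share of all tested genes that separated in this way was not counted, so no result is read from it.

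Mouse 2 differed from the other mice for the transporter and the phosphatase. There *Slc2a2* was 0.32 and *G6pc2* 0.27 higher on the log2 scale in the positive-labelled library, where the other 3 mice had differences between −0.12 and 0.041 for *Slc2a2* and between −0.13 and −0.053 for *G6pc2*. Mouse 2 also had the lowest *Ins1* difference (−0.64) and the lowest *Ins2* difference (−0.60), as well as the highest acinar marker level of any beta library (1798 CPM summed over 5 markers). The part of these in the *Slc2a2* and *G6pc2* values was not tested. Without mouse 2 the *Slc2a2* difference changed sign, to −0.044, and the *G6pc2* one was −0.097.

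**Figure D3:**
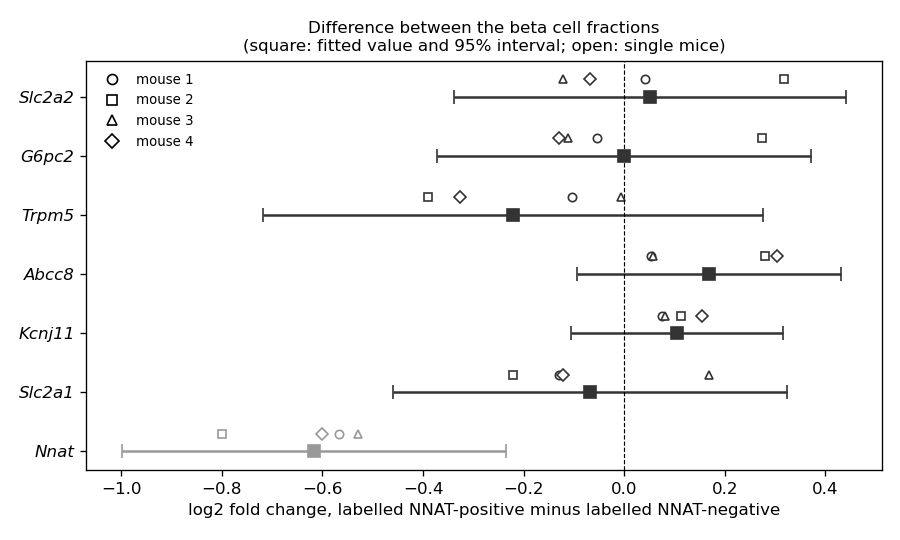
Log2 difference of the 6 genes and *Nnat* between the beta cell fractions, with positive-labelled higher to the right. Squares are fitted values with 95% intervals and open symbols the 4 mice. In this fit of all 11 libraries the intervals of the 6 genes include 0, and that of *Nnat* (fitted value −0.62) lies below it.

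Levels of different genes were compared per kilobase of exon, as CPM per kb. In the positive-labelled libraries, *G6pc2* was at 1954 ± 347 CPM per kb (SD, *n* = 4), *Slc2a2* at 296 ± 37.8 and *Abcc8* at 150 ± 12.3. *Kcnj11* was at 46.5 ± 6.51, *Trpm5* at 24.2 ± 3.25 and *Slc2a1* at 3.90 ± 0.808 CPM per kb. No neighbours in that order overlapped in range. The order was the same in the negative-labelled libraries, where *G6pc2* ranked 10 and *Slc2a2* 51 of 17409 genes with a known length. In non-beta cells the order was *G6pc2* (113 ± 56.5 CPM per kb, *n* = 3), *Abcc8* (84.9 ± 15.8), *Kcnj11* (39.8 ± 7.24), *Slc2a2* (16.2 ± 8.71), *Slc2a1* (4.27 ± 1.44) and *Trpm5* (1.32 ± 0.873). There the ranges of *G6pc2* and *Abcc8* overlapped, and *Trpm5* ranked 11896, where it ranked 1228 in the negative-labelled libraries.

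The balance of the partner genes was read from ratios of CPM per kb within a library. GLUT2 exceeded GLUT1 transcript 68.0-fold to 85.4-fold in the positive-labelled libraries, 58.8-fold to 83.1-fold in the negative-labelled ones and 1.81-fold to 8.06-fold in non-beta cells. *G6pc2* per *Slc2a2* was nearly constant, at 6.09 to 7.01, 6.36 to 7.48 and 6.79 to 7.54 in the 3 fractions, whose ranges overlapped.

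*Kcnj11* per *Abcc8*, the pore against its regulatory subunit, was 0.348, 0.353, 0.333 and 0.220 in the positive-labelled libraries and 0.343, 0.397, 0.328 and 0.244 in the negative-labelled ones. In non-beta cells it was 0.458, 0.459 and 0.487. The non-beta ratio was above both beta ratios of the same mouse in mice 1, 2 and 3, and mouse 4 had the lowest ratio in each beta cell fraction. The channel holds equal numbers of the subunits, but transcript reads per kilobase do not measure protein, and the exon lengths used join all annotated transcripts. No test of the ratio was run.

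**Figure D4:**
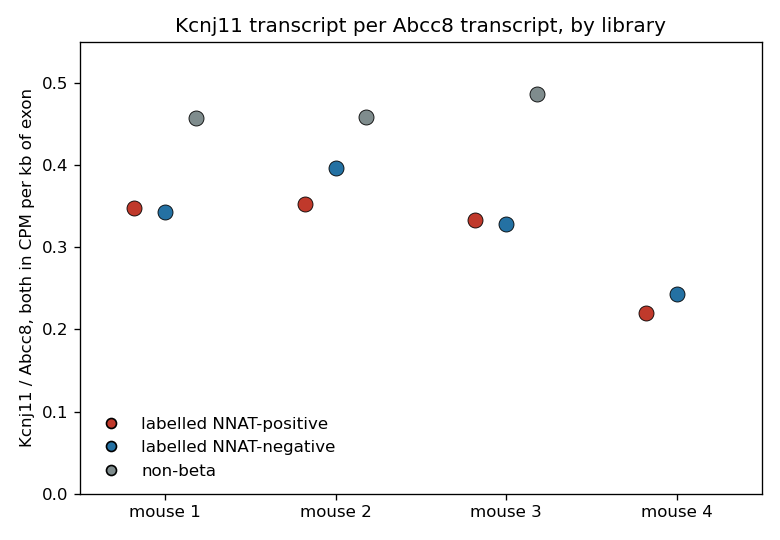
Ratio of *Kcnj11* to *Abcc8*, both in CPM per kb of exon (vertical axis from 0), by mouse, with 1 point per library coloured by fraction. Non-beta cells lie at 0.458 to 0.487, the beta libraries of mice 1 to 3 at 0.328 to 0.397 and those of mouse 4 at 0.220 and 0.244.

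The genes most like each of the 6 across the 11 libraries were ranked by the root mean square (RMS) difference of log2 CPM, each gene centred on its own mean, among 17423 other genes. The measure mostly reads the difference between beta and non-beta libraries, all values come from the same libraries, and the ranking is a description. *G6pc2* was the nearest to *Slc2a2* and *Slc2a2* the nearest to *G6pc2* (RMS difference 0.0877), followed for *Slc2a2* by *Car10* (0.145) and *Glp1r* (0.168), the GLP-1 receptor gene, and for *G6pc2* by *Glp1r* (0.157) and *Tmem215* (0.174). *Trpm5* was nearest to *Sytl4* (0.148), which encodes the granule protein granuphilin, *Prlr* (0.206), the prolactin receptor gene, and *Mafa* (0.219). *Kcnj11* was nearest to *Wdr6* (0.0664), *Sesn3* (0.0807) and *Ddr1* (0.0887), and *Abcc8* to *Lmo7* (0.102), *Unc80* (0.103) and *Fam160a2* (0.103). *Kcnj11* and *Abcc8* were at 0.344 from each other. *Slc2a1* was nearest to *Ckap4* (0.103), *Fen1* (0.128) and *Txndc5* (0.140).

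The other genes of the pathway were described from 6 lists of 83 genes, of which 68 were tested. Between the positive-labelled fraction and non-beta cells 13 were called higher and 17 lower, where 21.6% of all tested genes were called in either direction. For the negative-labelled one 12 were higher and 17 lower, where 23.3% were called. Of those lower, *Kcnj8*, *Abcc9*, *Hk2*, *Hk3* and *Plcb2* passed the filter on low counts through the non-beta libraries alone. Such genes could only be called lower, so their calls are no test of a difference. The list medians below include such genes too. Between the beta cell fractions 0 of the 68 were called by edgeR's quasi-likelihood test or by DESeq2; 7 had an unadjusted *p* below 0.05 in the higher and 1 in the lower direction by edgeR, and 8 and 0 by DESeq2. Over all 17424 tested genes the shares were 4.82% higher and 0.746% lower by edgeR, and 6.03% and 2.57% by DESeq2. With edgeR on the 8 beta libraries alone, 0 of 51 were called, with 4 higher and 0 lower at an unadjusted *p* below 0.05. Of all 14489 genes tested in that fit, 4.07% were higher and 2.95% lower by the same rule.

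Of 15 other glucose transporter genes, 12 were tested, and 3 were called higher and 4 lower than in non-beta cells in each beta cell fraction. The median log2 difference was −1.66 and −1.57 for the positive-labelled and negative-labelled fractions, against −0.06 and −0.13 over all genes. *Slc2a5*, which encodes the fructose transporter GLUT5, was at 273 to 368 and 266 to 363 CPM in the beta cell fractions and at 88.3 to 136 in non-beta cells, 3.14-fold higher in both comparisons (adjusted *p* = 3.22e-06 and 2.92e-06 by edgeR's quasi-likelihood test). *Slc2a13*, a proton and myo-inositol cotransporter gene, was 3.91-fold and 2.21-fold higher (adjusted *p* = 1.17e-05 and 0.000393 by the same edgeR test). Lower were *Slc2a3*, which encodes the high-affinity GLUT3, at 0.685 to 1.42 and 0.239 to 0.437 CPM against 14.6 to 19.7 (18.2-fold and 47.2-fold lower, adjusted *p* = 2.64e-06 and 7.27e-07 by edgeR), and *Slc2a10* (5.69-fold and 13.8-fold lower). Of the differences between beta cell fractions, the smallest *p* values belonged to *Slc2a13* (log2 0.82, SE 0.15, adjusted *p* = 0.123) and *Slc2a3* (log2 1.38, SE 0.30, adjusted *p* = 0.228), which were not called by edgeR. *Slc2a3* was higher in non-beta than in beta cells, and markers of alpha, delta, gamma and endothelial cells were also higher in the positive-labelled libraries. The part of those markers' cells in the *Slc2a3* value was not tested.

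Of 13 genes of glucose phosphorylation and glucose 6-phosphate, 12 were tested, with 1 called higher and 3 lower in each beta cell fraction (medians −0.30 and −0.31). *Slc37a4*, which carries glucose 6-phosphate into the endoplasmic reticulum where G6PC2 acts, was 2.82-fold and 2.83-fold higher than in non-beta cells (adjusted *p* = 3.07e-06 and 2.80e-06 by edgeR's quasi-likelihood test). The hexokinase genes *Hk1*, *Hk2* and *Hk3* were the lower ones. *Hk1* was at 0.504 to 2.16 and 0.109 to 0.721 CPM in the beta cell fractions against 58.0 to 77.6 in non-beta cells, 54.0-fold and 180-fold lower (adjusted *p* = 6.14e-06 and 1.30e-06 by edgeR). *Hk2* and *Hk3* had at most 6 counts in any beta library and means of 6.70 and 3.79 CPM in non-beta cells. Both passed the filter on low counts through the non-beta libraries alone. *G6pc3* (log2 0.30, adjusted *p* = 0.521) and *Hk1* (log2 1.73, adjusted *p* = 0.565) had the smallest *p* values of the list between the beta cell fractions by edgeR and were not called.

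The other KATP subunits separated from the pair above. All 7 genes of this list were tested, with 1 called higher and 3 lower in each beta cell fraction (medians 0.38 and 0.22). *Kcnj8*, which encodes Kir6.1, the pore of vascular KATP channels, had 0 counts in all 8 beta libraries and 8.97, 7.66 and 6.40 CPM in non-beta cells. Against a floor of 3 counts per library it was at least 91.1-fold higher in non-beta cells than in the positive-labelled fraction. *Abcc9*, which encodes its partner SUR2, had 0 counts in 6 beta libraries, 4 in the positive-labelled one of mouse 2 and 7 in the negative-labelled one of mouse 4. In non-beta cells it was at 62.5, 41.7 and 28.0 CPM. *Kcnj8* and *Abcc9* passed the filter on low counts through the non-beta libraries alone, so their calls are no test of a difference. The non-beta libraries held alpha, acinar, endothelial and mesenchymal markers among others, and the endothelial and mesenchymal ones were at or below 7.81 and 4.44 summed CPM in every beta library. Which cells carried *Kcnj8* and *Abcc9* was not tested. *Ank2*, which encodes ankyrin-B, a membrane anchor of ion channels, was 2.41-fold and 2.47-fold higher in beta cells (adjusted *p* = 0.000113 and 8.38e-05 by edgeR). *Prkaca*, a protein kinase A catalytic subunit gene (log2 0.16, adjusted *p* = 0.895), and *Abcc9* (adjusted *p* = 0.975) came first by *p* between the beta cell fractions and were not called by edgeR.

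Among other potassium channel genes of beta cell excitability, 19 of 20 were tested. In the positive-labelled fraction 4 were called higher and 3 lower than in non-beta cells, and in the negative-labelled one 3 and 3 (medians 0.32 and 0.19). *Kcnma1*, the pore of the large-conductance calcium-activated channel, was 2.77-fold and 2.84-fold higher (adjusted *p* = 4.68e-06 and 3.62e-06 by edgeR's quasi-likelihood test), and *Kcnmb2*, an auxiliary subunit of it, 2.50-fold and 2.46-fold higher. *Kcnk3*, which encodes the background channel TASK-1, was at 4.55 to 6.74 and 2.76 to 3.89 CPM against 72.0 to 99.2 in non-beta cells, 13.5-fold and 23.9-fold lower. *Kcnq1* was 7.39-fold and 19.0-fold lower. These 2 were also first by *p* between the beta cell fractions, with log2 differences of 0.83 for *Kcnk3* (adjusted *p* = 0.174) and 1.36 for *Kcnq1* (adjusted *p* = 0.396), and were not called by edgeR. Like *Slc2a3*, both were higher in non-beta cells and moved with the alpha, delta, gamma and endothelial cell markers, whose part was not tested.

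Of 18 other TRP channel genes 13 were tested, with 4 called higher and 3 lower in each beta cell fraction (medians −1.20 and −2.87). *Trpc4* was 9.32-fold and 9.96-fold higher than in non-beta cells (adjusted *p* = 1.76e-06 and 1.35e-06 by edgeR's quasi-likelihood test), *Trpc1* 2.45-fold and 2.50-fold, and *Trpm3*, a steroid-activated cation channel gene, 4.38-fold and 3.83-fold. All were thus below the fold of *Trpm5*. *Trpm4*, the closest relative of *Trpm5*, was at 1.04 ± 0.186 and 1.02 ± 0.0845 CPM per kb in the beta cell fractions and 1.51 ± 0.330 in non-beta cells, and is named outside the rule for its relation to *Trpm5*. *Trpv4* (adjusted *p* = 0.775 by edgeR, with 0 counts in all 4 positive-labelled libraries) and *Trpc5* (adjusted *p* = 0.885) had the smallest *p* values between the beta cell fractions.

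In taste cells, TRPM5 opens downstream of sweet, bitter and umami receptors through phospholipase C beta 2. Of the 10 genes of that chain only 5 passed the filter on low counts, and 0 were called higher and 1 lower than in non-beta cells in each beta cell fraction (medians −0.27 and −0.49). The lower one was *Plcb2*, with at most 3 counts in any beta library and 7.48, 3.92 and 5.54 CPM in non-beta cells. It passed the filter through the non-beta libraries alone, so its call is no test of a difference. *Itpr3*, an inositol trisphosphate receptor gene (log2 0.15, adjusted *p* = 0.895), and *Gnb1* (log2 0.05, adjusted *p* = 0.976) came first by *p* between the beta cell fractions and were not called by edgeR.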

How the data were processed

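Islet cells of 4 mice were dispersed with Accutase and sorted by FACS. By the study's methods each replicate is 1 mouse, and its text gives 8 weeks of age where the labels give 10. The authors made directional poly(A) libraries from 20 ng of RNA, sequenced paired reads of 75 bp, aligned them to mm10 with STAR 2.7.1a and counted them per gencode gene, and the deposited values are raw counts per gene.

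Counts were analysed in R 4.3.3 with edgeR 4.0.16: TMM normalisation, filterByExpr by fraction, and the quasi-likelihood test in 1 fit of all 11 libraries, blocked by mouse, with Benjamini-Hochberg adjustment over 17424 genes. Single genes passed at an adjusted *p* below 0.01. SE was the log2 fold change over the square root of *F*. Log2 CPM used a prior count of 2. Same-mouse beta libraries deviated together (mean correlation 0.314 over 4 pairs; 0.182 to 0.658). No 2 libraries were identical. The fit was tested on simulated data.

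Exon lengths, positions and overlaps came from gencode vM21 (GRCm38), which 55141 of the 55401 gene identifiers matched, and upstream sequences from RefSeq, which had entries for 4 of the 6 genes (not for *Kcnj11* and *Abcc8*). Of each list, up to 3 called genes with the smallest *p* per comparison were named, or up to 2 uncalled ones where none was called; some results of this rule are not reported here. The genes and lists were chosen with earlier results of these data known. Alternatives changed the tool (DESeq2 1.42.0), normalisation, filter, block, libraries, abundant genes and thresholds, and left out each mouse.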

Additional observations from a re-analysis of the deposited data

Results flagged for a closer look

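In groups of 4 libraries, a value was marked where its gap to the nearest other library, as a share of the group's range, exceeded Dixon's 95% critical value. Of 42 groups tested, 8 had such a value. The critical value gives about 1 in 20 for independent groups of normally distributed values. The groups here share libraries and include uneven marker sums, so the count cannot be set against that rate. *Abcc8* in the positive-labelled library of mouse 4 was at 1363 CPM, with the other 3 at 1157 to 1178. *Abcc8* in the negative-labelled library of mouse 2 was at 970 CPM, with the others at 1104 to 1119. The *Kcnj11* to *Abcc8* ratio per kb in the positive-labelled library of mouse 4 was 0.220, with the others at 0.333 to 0.353.

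*Nnat* in mouse 4 was at 101 CPM in the positive-labelled library (others 46.0 to 50.5) and at 153 CPM in the negative-labelled one (others 66.5 to 80.8). Summed acinar markers were at 1798 CPM in the positive-labelled library of mouse 2 (others 8.16 to 140). Summed endothelial markers were at 7.81 CPM in the positive-labelled library of mouse 1 (others 0.262 to 0.754) and at 1.02 CPM in the negative-labelled one of mouse 1 (others at most 0.250).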

How the results depend on the processing

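For the 6 genes, 56 of 60 values between the beta cell fractions, 58 of 60 for the positive-labelled fraction against non-beta cells and 52 of 60 for the negative-labelled one kept their direction and their side of an adjusted *p* of 0.01 (edgeR, or DESeq2 where named). *Abcc8* lost its adjusted *p* below 0.01 against non-beta cells in the positive-labelled fraction without mouse 3 (0.78; range over single mice left out 0.67 to 0.93), and in the negative-labelled one with the libraries of the fractions compared alone (0.65) and without mouse 1 or mouse 3 (0.46 and 0.58; range 0.46 to 0.79). Signs turned for differences near 0: *Slc2a2* between the beta cell fractions without mouse 2 (−0.044; range −0.044 to 0.096), *G6pc2* without mouse 1, 3 or 4 (0.023, 0.028 and 0.0034; range −0.097 to 0.028), *Slc2a1* against non-beta cells in the positive-labelled fraction without mouse 1 (0.24; range −0.29 to 0.24), and *Slc2a1* in the negative-labelled one with DESeq2 (−0.0093), RLE size factors (−0.0091) and without mouse 2 or 3 (−0.0045 and −0.13; range −0.13 to 0.29). Without the mouse block the last was −0.068, and no member changed its side of the threshold without the block. The cause was not tested.

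Between the beta cell fractions 8 genes were called, 8 higher and 0 lower in the positive-labelled libraries (839 and 130 at an unadjusted *p* below 0.05). The count was 16 at an adjusted *p* below 0.05, 86 with DESeq2, 26 with no filter and 1 without the mouse block that pairs the libraries. On simulated counts DESeq2 called more unchanged genes than edgeR. Those counts were drawn with edgeR's own estimates of spread and no mouse effect. They therefore cannot tell which tool's count is nearer the truth in these data. The count was 0 to 5 with 1 mouse left out: 0 without mouse 3, 3 without mouse 2 or mouse 4 and 5 without mouse 1. At any fold, 6072 and 6420 genes passed against non-beta cells for the positive-labelled and negative-labelled fractions, where 3765 and 4056 were called. RLE size factors moved the median of all genes to −0.16 and −0.19 in these comparisons.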
